A study of Mus musculus with 23 samples.

Results

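The genes described here are Mylk, Cnn2 and 8 other genes of the actin cytoskeleton, Tgfb1i1, Flna, Actb, Actg1, Actn1, Tpm1, Vcl and Myh9. They are 10 of the 13766 genes in a table of hippocampal expression, and all 10 were found there by symbol. They were chosen by name with their difference between XY and XX hippocampus already known, so that difference is described below and not tested. The study sequenced RNA from the hippocampus of 23 mice of the FCG model on the C57Bl/6J background, each library from a different animal of about 12 months. In this model Sry, the testis-determining gene, is missing from the Y chromosome and carried by an autosome instead, so that sex chromosomes and gonads are inherited separately. The groups were XX mice with ovaries (XXF, n = 5), XX mice with testes (XXM, n = 6), XY mice with ovaries (XYF, n = 6) and XY mice with testes (XYM, n = 6). XXM and XYM carry the Sry transgene, XYF and XYM carry the Y chromosome without Sry, and no group was treated. Pups were caged after weaning by their genitalia, so cage type and gonad cannot be told apart.

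Actin filaments are built from actin monomers, crosslinked by actinins and filamins, covered by tropomyosins and calponins, tied to integrin adhesions by vinculin and pulled by non-muscle myosin II. Myosin II is switched on when myosin light chain kinase phosphorylates its regulatory light chain. Many of these genes are transcribed by serum response factor (SRF) with its actin-monomer-sensing partners, the myocardin-related factors, and in brain tissue several are most abundant in smooth muscle cells and pericytes (mural cells) of vessels.

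The libraries held 10257751 to 36078221 estimated counts over the listed genes, with a mean of 22250874. Levels are given as CPM, the usual counts scaled to a common normalized library size. Xist, a non-coding RNA made from the inactive X, was at 936 to 1468 CPM in the 11 XX libraries and at or below 2.86 CPM in 11 of the 12 XY libraries. XYF replicate 4 held 94.1 CPM of Xist together with its Y-linked transcripts, and the 4 Y-linked genes read as a check were at or below 0.437 CPM in every XX library. Without XYF replicate 4 the XY minus XX difference was 0.50 for Mylk, 0.76 for Cnn2, 0.52 for Tgfb1i1 and 0.57 for Flna on the log2 scale. Markers of neurons had a summed level of at least 5212 CPM in every library. Prox1, known from dentate granule cells, was at 46.5 to 84.6 CPM and Fibcd1, known from the CA1 field, at 149.7 to 220.4 CPM.

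Mylk, Cnn2, Tgfb1i1 and Flna were higher in XY than in XX hippocampus, by 1.42-fold to 1.68-fold over both gonads, and were higher in XY with ovaries as well as with testes. The actin genes and the remaining members lay between 1.07-fold and 1.13-fold higher in XY. Neither the gonad nor an interaction of gonad and sex chromosomes was detected for any of the 10 genes. Among 153 further genes of the actin cytoskeleton and its regulators 1, Tmsb4x, was called for the sex chromosomes, and their median difference was 0.00.

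**Figure D1:**
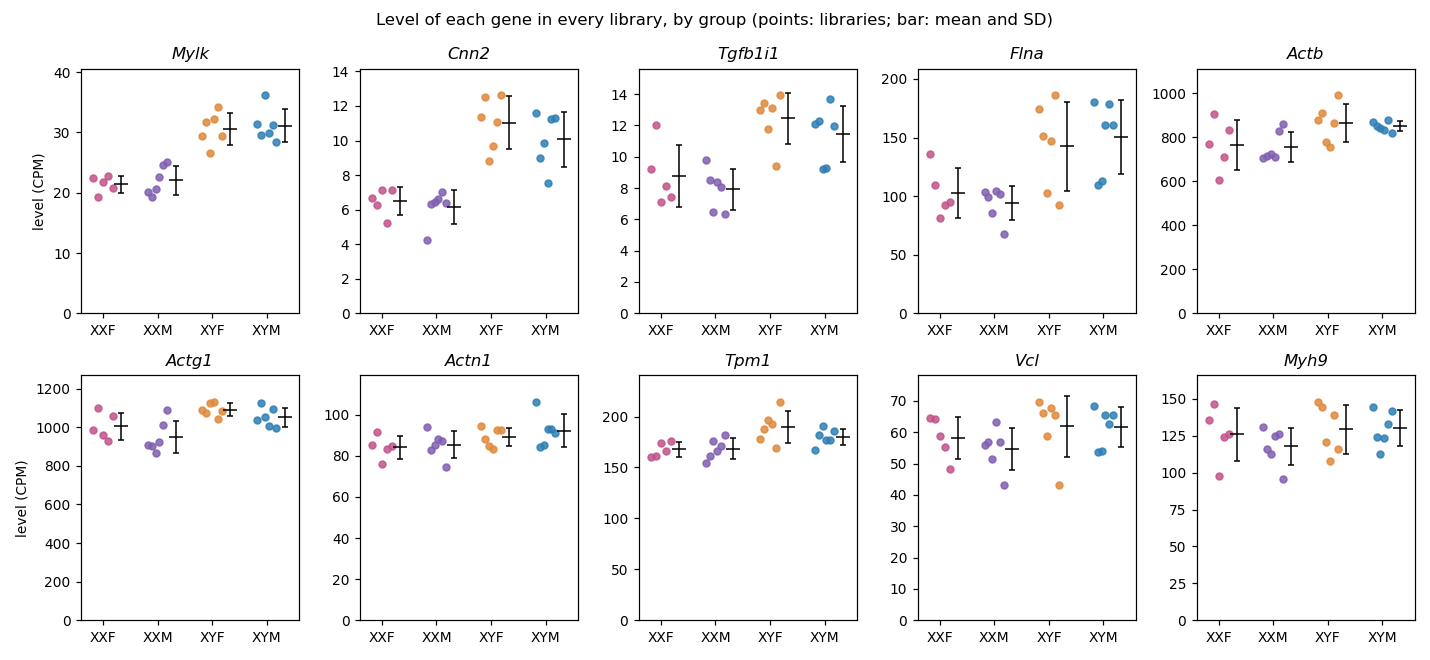
Level of each of the 10 genes in every library in CPM (vertical axis, starting at 0), by group (horizontal axis). Points are libraries, and the bar beside each group is its mean with the SD. For Mylk and Cnn2 the XY libraries, from 26.6 and 7.54 CPM, sit above every XX library, at up to 25.1 and 7.16 CPM.

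Mylk (gene 107589, chromosome 16, 34784950 to 35002434, plus strand, mm10) encodes the myosin light chain kinase of smooth muscle and non-muscle cells. It was at 22.5, 19.3, 21.7, 22.8 and 20.8 CPM in the 5 XXF libraries, and at 19.3 to 25.1 CPM with a median of 21.6 in XXM. In XYF it ranged from 26.6 to 34.2 CPM with a median of 30.6, and in XYM from 28.4 to 36.3 CPM with a median of 30.6. The highest XX library, at 25.1 CPM, was below the lowest XY library, at 26.6 CPM. The group means were 21.4 ± 1.42 (SD, n = 5), 22.1 ± 2.44 (SD, n = 6), 30.6 ± 2.66 (SD, n = 6) and 31.1 ± 2.74 CPM (SD, n = 6) in XXF, XXM, XYF and XYM. XY exceeded XX by 0.50 ± 0.06 on the log2 scale (estimate and standard error, both gonads averaged), a fold of 1.42. The size was 0.51 ± 0.08 between the groups with ovaries and 0.50 ± 0.08 between those with testes.

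Cnn2 (gene 12798, chromosome 10, 79988600 to 79995400, plus strand) encodes calponin 2, which binds actin filaments and restrains myosin. It was at 6.66, 6.29, 7.13, 5.23 and 7.16 CPM in XXF and at 4.24 to 6.99 CPM with a median of 6.41 in XXM. It stood at 8.79 to 12.6 CPM with a median of 11.2 in XYF and at 7.54 to 11.6 CPM with a median of 10.5 in XYM. The XX and XY libraries did not overlap here either, with 7.16 CPM as the highest XX value and 7.54 CPM as the lowest XY value. Group means were 6.50 ± 0.793 (SD, n = 5), 6.16 ± 0.973, 11 ± 1.53 and 10.1 ± 1.60 CPM (SD, n = 6 each) in the order XXF, XXM, XYF and XYM. The XY minus XX difference was 0.74 ± 0.09 on the log2 scale, a fold of 1.68, with 0.77 ± 0.14 for ovaries and 0.71 ± 0.13 for testes. Across the table, 11 genes (0.0799%) had every XY library above every XX library, and Mylk and Cnn2 were among them. The Y-linked genes read as a check, which XX mice lack, were among the 11 too.

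Tgfb1i1 (gene 21804, chromosome 7, 128246871 to 128253712, plus strand) encodes Hic-5, a LIM-domain adaptor of focal adhesions related to paxillin. It was at 9.24, 12.0, 7.13, 8.11 and 7.40 CPM in XXF and at 6.36 to 9.80 CPM with a median of 8.20 in XXM. XYF libraries held 9.43 to 14 CPM with a median of 13.1, and XYM libraries 9.24 to 13.7 CPM with a median of 12.0. The groups overlapped, with 7 of 12 XY libraries above the highest XX library, XXF replicate 2. The difference was 0.52 ± 0.10 on the log2 scale, a fold of 1.44, with 0.52 ± 0.14 for ovaries and 0.53 ± 0.13 for testes.

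Flna (gene 192176, chromosome X, 74223461 to 74246534, minus strand) encodes filamin A, the crosslinker of actin networks, and is the X-linked gene among the 10. It was at 136, 110, 80.9, 92.0 and 94.9 CPM in XXF and at 67.9 to 105 CPM with a median of 101 in XXM. In XYF it spread from 92.2 to 186 CPM with a median of 149, and in XYM from 109 to 180 CPM with a median of 161. Of the 12 XY libraries 8 were above the highest XX library, XXF replicate 1, and among mice with testes the XY and XX libraries did not overlap (0.225% of all genes had XYM wholly above XXM). The XY minus XX difference was 0.58 ± 0.12, a fold of 1.49, with 0.47 ± 0.17 for ovaries and 0.68 ± 0.16 for testes. Its SD within groups reached 37.9 CPM in XYF, so single libraries of this gene say less than those of Mylk.

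Actb (gene 11461, chromosome 5, 142903116 to 142906724, minus strand) and Actg1 (gene 11465, chromosome 11, 120345690 to 120348484, minus strand) encode the cytoplasmic beta and gamma actins. Their coding sequences resemble each other and those of processed copies, so how reads were divided between them is uncertain. Actb was at 768, 903, 608, 712 and 832 CPM in XXF, at 704 to 860 CPM in XXM (median 719), at 756 to 993 CPM in XYF (median 870) and at 821 to 880 CPM in XYM (median 846). Actg1 was at 984, 1099, 962, 927 and 1058 CPM in XXF, at 868 to 1091 CPM in XXM (median 916), at 1045 to 1133 CPM in XYF (median 1088) and at 996 to 1124 CPM in XYM (median 1044). The groups overlapped for both actins, and 2 and 3 of 12 XY libraries were above the highest XX library. XY minus XX was 0.17 ± 0.06 for Actb and 0.13 ± 0.04 for Actg1, folds of 1.13 and 1.10. Per kilobase of annotated exon the actins were the most abundant of the 10, at 386 CPM per kb for Actg1 and 303 CPM per kb for Actb, and Mylk (2.35 CPM per kb) and Tgfb1i1 (1.83 CPM per kb) the least.

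The filament, adhesion and motor genes had differences of a size near that of the actins. Tpm1 (tropomyosin 1, which coats filaments, chromosome 9) was at 168 ± 7.51 (SD, n = 5) and 169 ± 10 CPM in XXF and XXM, and at 190 ± 15.8 and 180 ± 7.98 CPM in XYF and XYM (SD, n = 6 each). Its 12 XY libraries ran from 168 to 215 CPM and 6 of them lay above the highest XX library, at 182 CPM. The XY minus XX difference was 0.14 ± 0.04 for Tpm1. It was 0.10 ± 0.04 for Actn1 (alpha-actinin 1, which crosslinks filaments), 0.13 ± 0.07 for Vcl (vinculin) and 0.09 ± 0.07 for Myh9 (the heavy chain of non-muscle myosin IIA). Actn1 ranged from 74.6 to 94.2 CPM in XX and from 83.5 to 106 CPM in XY, Vcl from 43.2 to 64.5 and from 43.1 to 69.8 CPM, and Myh9 from 95.9 to 147 and from 108 to 148 CPM, so that all 3 overlapped broadly. Vcl shares sequence with Ap3m1 on the opposite strand, which differed by 0.03 ± 0.05 between XY and XX. Antisense genes also lie across Mylk (3 in GENCODE vM21, 1700119H24Rik, E130310I04Rik and Gm21691) and Actn1 (2, Gm47766 and Gm47767), which were not analysed here. The sources used here do not say whether the counting used strand, and without it reads of a gene and its antisense partner cannot be told apart.

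**Figure D2:**
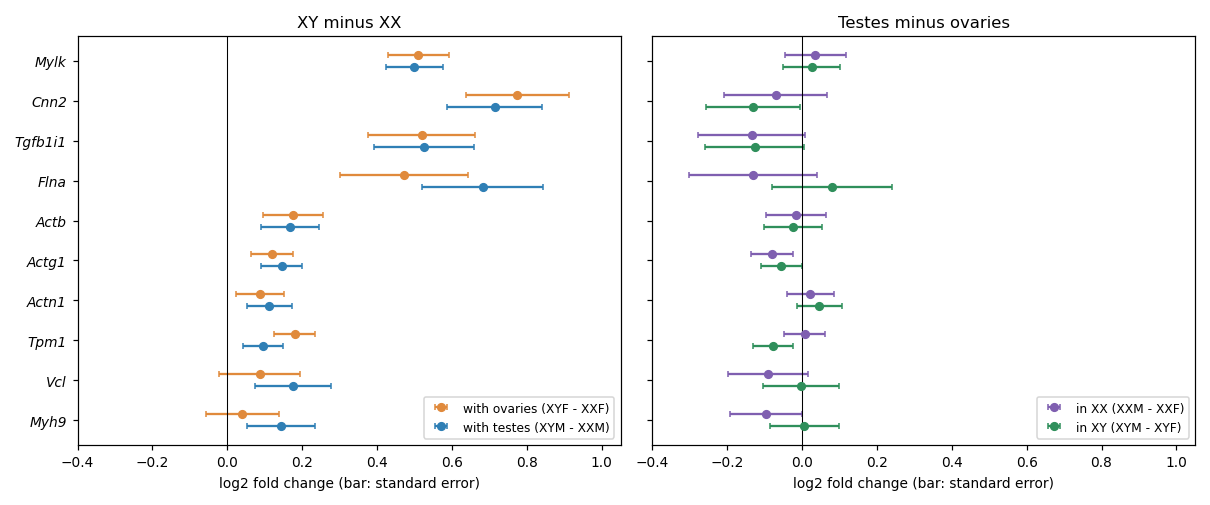
Log2 fold change with its standard error (horizontal axis) for each gene (vertical axis), XY minus XX for mice with ovaries and with testes on the left, and testes minus ovaries in XX and in XY mice on the right. Mylk, Cnn2, Tgfb1i1 and Flna lie between 0.47 and 0.77 on the left with either gonad, and the 10 genes lie between -0.13 and 0.08 on the right.

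For XY minus XX, 4 of the 10 genes (Mylk, Cnn2, Tgfb1i1 and Flna) were past an adjusted p of 0.05 in edgeR's quasi-likelihood test over all genes, against 0.283% of all genes (39 of 13766). The XYF to XXF comparison alone called Mylk and Cnn2 (0.291% of all genes called) and so did XYM to XXM (0.116%), both of them parts of the same contrast. Because the genes were chosen on this contrast, the counts are a description, and in the average over both gonads Flna was not past the threshold without XXF replicate 3, 4 or 5. The rule has no threshold. By size, 0.269% of all genes had an XY minus XX difference as high as that of Cnn2, 0.349% as that of Flna, 0.407% as that of Tgfb1i1 and 0.458% as that of Mylk. The next member, Actb, was equalled or passed by 4.73% of genes and the last, Myh9, by 13%. All 10 differences were positive with a median of 0.15, where the median over all genes was 0.00. In bulk tissue a change in the number of expressing cells and a change in RNA per cell cannot be told apart.

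The gonad was not part of the choice and was tested. None of the 10 genes differed between testes and ovaries, against 0.16% of all genes called (22 of 13766), and none of the 10 had an unadjusted p under 0.05 in edgeR, where 13.6% of all genes did. The differences ran from -0.13 ± 0.10 for Tgfb1i1 (adjusted p = 0.574) to 0.03 ± 0.04 for Actn1 (adjusted p = 0.756), with 8 of 10 negative and a median of -0.04. None of the 10 was called for the gonad in any of 11 other settings, DESeq2 and limma included, or with any library left out. The 95% intervals, taken as 1.96 standard errors, were -0.08 to 0.14 for Mylk, -0.28 to 0.08 for Cnn2, -0.32 to 0.06 for Tgfb1i1 and -0.25 to 0.20 for Flna.

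Whether the XY minus XX difference depended on the gonad was tested as an interaction. None of the 10 genes was called, as none of the 13766 genes was (0.0%), and none of the 10 had an unadjusted p under 0.05, where 3.23% of all genes did. The estimates ran from -0.08 ± 0.08 for Tpm1 to 0.21 ± 0.23 for Flna, with an adjusted p of 0.999 in edgeR for each of the 10, and the other settings called none of them. The 95% interval was -0.23 to 0.21 for Mylk, -0.42 to 0.30 for Cnn2, -0.37 to 0.39 for Tgfb1i1 and -0.25 to 0.67 for Flna.

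The promoters are shown because SRF sites (CArG boxes) and TEAD sites (CATTCC) are features these genes could share. RefSeq (GRCm38.p6) windows of 300 bases, from 250 before to 50 after the gene start, were at hand for 8 of the 10 genes, all but Actb and Tgfb1i1, and each was searched on both strands. A CArG box with no mismatch was found in 3 of the 8, Cnn2, Actg1 and Vcl, against 1.25% of 13971 promoters of the table's genes and 4.71% of 170 promoters of the other cytoskeleton genes. These 3 promoters are printed 5′ to 3′ on the gene's strand with the CArG box in capitals, which starts 56, 90 and 227 bases before the gene start.
Cnn2, chr10:79988350-79988649, plus strand: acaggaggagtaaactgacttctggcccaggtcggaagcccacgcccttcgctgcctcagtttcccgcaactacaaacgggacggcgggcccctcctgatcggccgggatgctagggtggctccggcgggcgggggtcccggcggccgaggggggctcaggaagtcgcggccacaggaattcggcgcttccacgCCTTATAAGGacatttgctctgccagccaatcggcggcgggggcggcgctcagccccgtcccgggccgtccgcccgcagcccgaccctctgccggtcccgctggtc
Actg1, chr11:120348446-120348745, minus strand: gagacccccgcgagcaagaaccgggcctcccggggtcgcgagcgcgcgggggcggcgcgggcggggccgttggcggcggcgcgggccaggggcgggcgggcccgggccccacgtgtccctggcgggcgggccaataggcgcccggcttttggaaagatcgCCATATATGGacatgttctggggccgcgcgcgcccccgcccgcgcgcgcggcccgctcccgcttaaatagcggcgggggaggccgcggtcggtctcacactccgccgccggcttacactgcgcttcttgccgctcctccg
Vcl, chr14:20929148-20929447, plus strand: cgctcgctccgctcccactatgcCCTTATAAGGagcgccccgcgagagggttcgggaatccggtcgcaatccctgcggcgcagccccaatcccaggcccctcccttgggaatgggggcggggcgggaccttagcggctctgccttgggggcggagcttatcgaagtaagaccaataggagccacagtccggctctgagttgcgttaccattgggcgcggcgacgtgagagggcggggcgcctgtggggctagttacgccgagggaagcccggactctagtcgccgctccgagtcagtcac
Of these 3 genes only Cnn2 differed between XY and XX by more than 0.15 on the log2 scale, and the Mylk and Flna windows held no CArG box. CATTCC was found in 4 of the 8 windows (Mylk, Flna, Tpm1 and Vcl), against 12.5% of the 13971, with no overlap with a CArG box. The Mylk and Flna windows follow with CATTCC in capitals, 158 and 146 bases before the gene start.
Mylk, chr16:34784700-34784999, plus strand: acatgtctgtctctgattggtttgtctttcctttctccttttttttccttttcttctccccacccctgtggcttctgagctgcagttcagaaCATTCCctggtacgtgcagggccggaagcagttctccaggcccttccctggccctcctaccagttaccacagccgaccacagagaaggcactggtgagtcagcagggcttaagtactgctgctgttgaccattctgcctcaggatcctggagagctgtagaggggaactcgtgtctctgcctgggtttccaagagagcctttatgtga
Flna, chrX:74246485-74246784, minus strand: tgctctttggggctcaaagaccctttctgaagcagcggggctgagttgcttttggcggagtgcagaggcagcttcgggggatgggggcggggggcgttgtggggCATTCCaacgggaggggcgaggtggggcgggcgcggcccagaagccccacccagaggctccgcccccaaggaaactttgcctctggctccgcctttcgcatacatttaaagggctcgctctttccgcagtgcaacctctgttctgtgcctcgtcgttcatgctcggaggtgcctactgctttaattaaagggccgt
GGGCGG, the GC box, was in 7 of the 8 windows and in 60.8% of the 13971, and Mylk was the gene without it. Mylk has further start sites in the GENCODE annotation, from 34745210 on, so its window covers 1 of several promoters. A match to these letters is a description of the sequence.

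The other genes of the pathway were read from 7 lists that hold 163 symbols, of which 153 were in the table. Against the 0.283% of all genes called for XY minus XX, 1 of these 153 was called (0.654%). This was Tmsb4x (gene 19241, X chromosome), which encodes the actin monomer binding peptide thymosin beta-4. The number of copies of this gene in each group was not examined here. Tmsb4x was at 566 to 735 CPM in XXF (median 587), at 528 to 666 CPM in XXM (median 576), at 882 to 1185 CPM in XYF (median 984) and at 683 to 1104 CPM in XYM (median 881). It rose by 0.64 ± 0.07 (adjusted p = 1.10e-06 in edgeR), the XYF libraries were all above XXF (as for 0.552% of all genes, Mylk and Cnn2 included) and the XYM libraries all above XXM, and no other of the 153 reached the size seen in Mylk. Of the 153, 75 were positive and 78 negative, the median was 0.00, and 90% of them lay between -0.11 and 0.13.

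Among 28 genes of myosin II and its regulation the median difference was 0.00. Myl9, which encodes the light chain that Mylk's product phosphorylates, differed by 0.05 ± 0.11 (adjusted p = 0.974 in edgeR), and the smallest p belonged to the essential light chain gene Myl6 at 0.14 (adjusted p = 0.619). The medians were 0.01 over 22 genes of monomer supply and filament turnover and 0.02 over 24 genes of nucleation, where Arpc5, a subunit of the Arp2/3 complex, had the smallest p (0.12, adjusted p = 0.417). The median was -0.01 over 30 filament-binding genes, where Lasp1, a LIM and SH3 protein, had the smallest p (-0.15, adjusted p = 0.162). Close relatives of the members were among these. Calponin 3 (Cnn3) differed by 0.00 ± 0.04, filamin C (Flnc) by -0.06 ± 0.13 and the calponin-like Tagln by -0.01 ± 0.17, none of them called. Over 27 focal adhesion genes the median was -0.02, and Itgav, an integrin subunit, had the smallest p (-0.08, adjusted p = 0.827).

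The SRF targets and the regulators above them were read in the same way. Over 14 listed SRF targets outside the 10 genes the median XY minus XX difference was 0.04 with none called, and Ctgf had the smallest p (-0.24, adjusted p = 0.735 in edgeR). Srf itself differed by 0.11 ± 0.05 (adjusted p = 0.776) and its partners Mkl1 and Mkl2 by 0.01 each. The median was -0.02 over 16 SRF, YAP and TGF-beta regulators, with the smallest p for Smad3 (-0.09, adjusted p = 0.631).

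**Figure D3:**
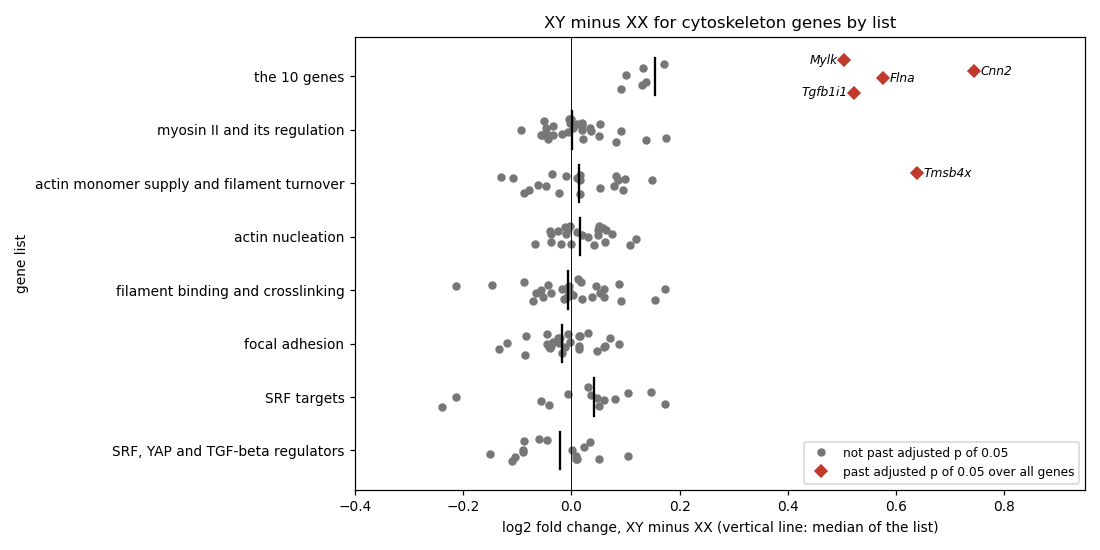
XY minus XX log2 fold change (horizontal axis) for the 10 genes and for 7 lists of other cytoskeleton genes (rows). Each point is a gene, diamonds are past an adjusted p of 0.05 over all genes, and the short vertical line is the list's median. Tmsb4x, at 0.64, stands with Mylk, Cnn2, Tgfb1i1 and Flna at 0.50 to 0.74, and the medians of the 7 lists lie between -0.02 and 0.04.

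No gene of the 7 lists was called for the gonad or for the interaction. Of the 153 genes 27 (17.6%) had an unadjusted p under 0.05 for the gonad in edgeR, against 13.6% of all genes, and 6 (3.92%) did for the interaction, against 3.23%. The smallest gonad p per list belonged to Arhgef11 (0.13, adjusted p = 0.199), Tmsb10 (-0.25, adjusted p = 0.204), Daam2 (0.12, adjusted p = 0.269), Tmod1 (0.22, adjusted p = 0.184), Parvb (0.15, adjusted p = 0.239), Ctgf (-0.39, adjusted p = 0.181) and Tgfb2 (0.21, adjusted p = 0.161). For the interaction they were Arhgef2 (0.18), Dstn (-0.22), Fmnl1 (0.16), Ezr (-0.40), Pdlim7 (0.32), Cyr61 (-0.72) and Tgfb2 (-0.32), each with an adjusted p of 0.999 in edgeR.

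The genes were then compared library by library after each group's mean was removed, so that the XY minus XX difference no longer enters. Mylk, Cnn2, Tgfb1i1 and Flna, all higher in XY, were not found to vary together within groups. Their 6 pairwise correlations over 23 libraries had a median of 0.06 and ran from -0.44 to 0.28. Mylk and Cnn2 had r = 0.24 (permutation p = 0.332, adjusted p = 0.50 over 45 pairs) and rho = 0.17, and r = 0.15 without the 2 libraries farthest from the median of Mylk. Mylk and Tgfb1i1 had r = -0.44 (permutation p = 0.0454, adjusted p = 0.157), and Mylk and Flna r = 0.03 (adjusted p = 0.939). Tgfb1i1 and Flna had r = 0.28 (adjusted p = 0.433 by permutation), with 0.85, -0.45 and 0.37 within XXM, XYF and XYM. This pair rose to 0.50 without XXF replicate 2 and XYF replicate 5. Cnn2 and Flna had r = 0.10 (adjusted p = 0.825 by permutation), and 0.31 without XXM replicate 1 and XYM replicate 4. The upper end of the range thus depends on single libraries.

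**Figure D4:**
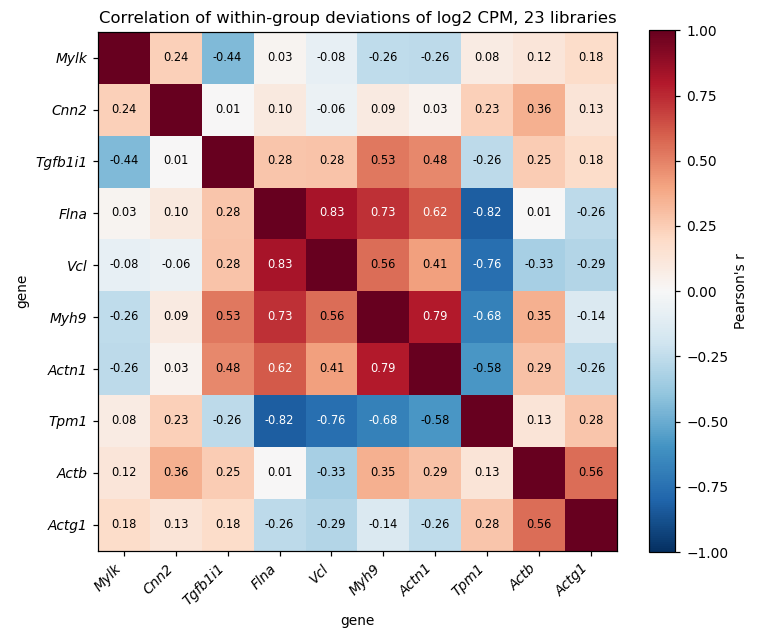
Pearson's r of within-group deviations of log2 CPM between the 10 genes over 23 libraries, coloured from -1 (blue) to 1 (red), with the value in each cell. Flna, Vcl, Myh9 and Actn1 are positive with each other, though Vcl is not past the threshold with Myh9 (0.56) or Actn1 (0.41). Tpm1 is negative with all of these genes, down to -0.82 with Flna, while Mylk and Cnn2 have no pair past the threshold.

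A second set did vary together. Of the 45 pairs 8 passed an adjusted p of 0.05, and all 8 were among Flna, Vcl, Myh9, Actn1 and Tpm1. Flna and Vcl, the filament crosslinker and the adhesion linker, had r = 0.83 (permutation p = 2.00e-05, adjusted p = 0.000450) and rho = 0.81 (permutation p = 1e-05, the smallest that 100000 permutations can give). The value was 0.74 without XXM replicate 6 and XYF replicate 6, and 0.95, 0.84 and 0.95 within XXM, XYF and XYM. Flna and Myh9 had r = 0.73 (adjusted p = 0.00378) and rho = 0.77, Flna and Actn1 r = 0.62 (adjusted p = 0.0145) and rho = 0.64, and Actn1 and Myh9 r = 0.79 (adjusted p = 0.000450) and rho = 0.72. Without the 2 farthest libraries these were 0.67, 0.71 and 0.76. By Pearson's r, Vcl was not past the threshold with Myh9 (r = 0.56, adjusted p = 0.0550 by permutation, rho = 0.64). Nor was it with Actn1 (r = 0.41, adjusted p = 0.172 by permutation, rho = 0.50). Within XYF, Actn1 had r = -0.20 with Vcl and 0.25 with Flna.

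Tpm1 ran the other way. Its correlation was -0.82 with Flna (adjusted p = 0.000450, rho = -0.82), -0.76 with Vcl (adjusted p = 0.00202, rho = -0.75), -0.68 with Myh9 (adjusted p = 0.00675, rho = -0.69) and -0.58 with Actn1 (adjusted p = 0.0163, rho = -0.59), all by permutation. Without the 2 farthest libraries these were -0.73, -0.72, -0.70 and -0.43. The actins had r = 0.56 with each other (permutation p = 0.0124, adjusted p = 0.0557), with -0.64 within XYF and 0.94 within XXM.

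**Figure D5:**
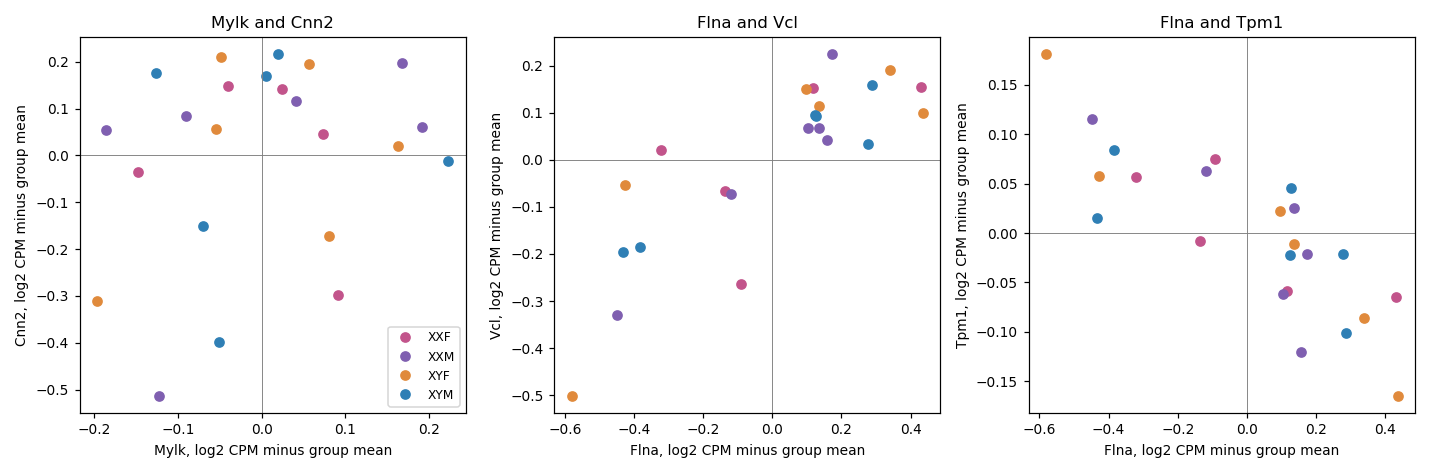
Deviation from the group mean on the log2 CPM scale for Mylk and Cnn2 (left), Flna and Vcl (middle) and Flna and Tpm1 (right), with 1 point per library coloured by group. The left panel has no slope past the threshold (r = 0.24), Vcl rises with Flna (r = 0.83), and Tpm1 falls as Flna rises (r = -0.82), with 9 libraries below -0.09 for Flna and 14 above 0.10.

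The libraries fell on both sides of a gap in Flna, 9 at -0.58 to -0.09 and 14 at 0.10 to 0.44 on the log2 scale. Each group's mean had been removed, so every group has libraries on both sides by construction. Within those ranges Flna and Tpm1 had r = -0.56 and -0.62, and Flna and Vcl r = 0.51 and 0.20. Each range holds a part of Flna's spread only, so these values cannot be set against those over the 23 libraries. This variation was not particular to the cytoskeleton. Flna had r of at least 0.5 with 12.1% of all other genes, Vcl with 10.2% and Tpm1 with 10.4%, but Mylk with 0.727% and Cnn2 with 0.792%. The 8 pairs are thus read against a variation that many genes share. It also moved with transcript length. The genes at r of at least 0.5 with Flna had a median longest transcript of 4663 bases (GENCODE vM21) and those at or below -0.5 of 2534.5 bases, against 3498 bases over all genes, and for Tpm1 the order was reversed (2614 and 4724.5 bases). The part of length in the correlations was not tested.

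By the largest r of within-group deviations over 23 libraries, the genes most like Mylk were Rcn3 (0.71), Pcdhgb7 (0.69), Lrrc56 (0.69), Sat2 (0.69) and Chic2 (0.69). Those most like Cnn2 were Dedd (0.68), Naaa (0.66), Hspa12b (0.66), Rasip1 (0.64) and Vmac (0.64). Flna had far closer companions in Cep110 (0.94), Pxn (0.94), Mdm4 (0.93) and Adamts20 (0.92), and Actb in Camk2b (0.94), Camta2 (0.88), Ptk2b (0.86), Tubb4a (0.86) and Ncdn (0.84). These are among the highest of 13764 values each and share libraries and depth, so they carry no p. None of these genes was called for XY minus XX in edgeR (adjusted p of at least 0.313). Pxn (paxillin), the one that is also on the focal adhesion list, differed by 0.07 ± 0.10 there.

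Markers of the other cells of the dissected tissue were set beside the members. None of 11 mural cell markers was called for XY minus XX in edgeR, none had an unadjusted p under 0.05, and their median was -0.01. Their summed level was 179 to 242 CPM in XXF, 176 to 225 in XXM, 177 to 223 in XYF and 164 to 216 in XYM. None of 11 endothelial (median 0.01), 11 fibroblast and meninges (-0.05), 11 microglia (0.07), 10 choroid plexus (-0.53), 6 ependymal (0.15), 8 astrocyte (-0.03), 7 neuron (-0.01), 8 oligodendrocyte (-0.07) or 3 red blood cell markers (0.27) was called either. Averaged over gonads, 8 of 8 oligodendrocyte and 7 of 8 astrocyte markers were lower in XY. In that average the ependymal (6 of 6) and red blood cell markers (3 of 3) were all higher. These signs did not hold with each gonad for some ependymal and red blood cell markers. From XXF to XYF and from XXM to XYM, Alas2 differed by 1.09 and -0.16 and Hba-a1 by 0.65 and -0.13. In the ependymal list Dynlrb2 differed by 0.61 and -0.40 and Foxj1 by 0.28 and -0.24, but Ccdc153 by 0.48 and 0.11. The part of these lists in the members' differences was not tested. The choroid plexus markers, whose summed level ran from 293 to 5894 CPM over libraries of all groups, had a negative XY minus XX average for 10 of 10, none called. The sign of the fitted differences turned with the gonad. All 10 were higher in XYF than in XXF, by 0.21 (Kl) to 0.77 (Otx2), and all 10 were lower in XYM than in XXM, from -1.72 (Aqp1) to -1.09 (Kl). The median summed level was 383, 3705, 343 and 404 CPM in XXF, XXM, XYF and XYM, so by the median XYF was not above XXF. Few rich libraries weigh on the fit. Ttr had a median of 56.7 and a highest value of 2927 CPM in XYF, against 68.7 and 1670 CPM in XXF. The 10 markers share these libraries and are not 10 separate results. With that list's mean log2 level as a covariate the XY minus XX difference was 0.52 for Mylk, 0.76 for Cnn2, 0.52 for Tgfb1i1 and 0.66 for Flna, and with the mural cell list 0.51, 0.75, 0.53 and 0.60.

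Within groups, 3 of 100 combinations of a member and a marker list were called, but 0 with the list's median in place of its mean, and from 0 without XXF replicate 1 to 8 without XXM replicate 5 when each library was left out. Flna followed the mural cell list (r = 0.71, permutation p = 0.000560, adjusted p = 0.0280, rho = 0.64) and ran against the astrocyte list (r = -0.71, adjusted p = 0.0240, rho = -0.66), and Tpm1 followed the neuron list (r = 0.61, permutation p = 0.000950, adjusted p = 0.0317, rho = 0.70). Without the 2 farthest libraries r was 0.68, -0.68 and 0.59. Mylk had r = 0.17 and Cnn2 r = 0.11 with the mural cell list. The part of these cells in the results was not tested beyond the covariate values above. Library size moved with 1 of the 10 genes, Actg1 (r = -0.70, permutation p = 1.00e-04, adjusted p = 0.00100 over 10 genes).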

How the data were processed

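Hippocampal RNA of 23 mice was measured. Per the labels' protocols, ribosomal RNA was removed and 500 ng of total RNA went into stranded libraries. The authors deposited estimated counts per gene, raw values that need not be whole, and these were rounded to whole numbers. Their normalized values were deposited on a log2 scale and equal the log2 count less a constant per library to within 1.02e-06, with the XXF median at 0. They served as an alternative. Genes kept, per the file headers, had a raw value of at least 20 in 100% of the samples of at least 1 group, so genes low everywhere were not analysed here. DESeq and mm10 are named in the submitters' processing notes. Not given in the sources used here are the aligner, the counting program and its use of strand. Listed genes not found by symbol, and so not analysed here, were Mylk4, Diaph1, Diaph2, Diaph3, Cnn1, Sptan1, Sptbn1, Acta2, Actg2 and Myocd. The markers Map2, Hbb-bs and Hbb-bt were not found either. A gene held under another symbol would be missed in this way, so absence does not mean a low level.

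Groups came from the labels, and replicate numbers follow accession order and only name libraries. Counts were scaled by the trimmed mean of M-values, filterByExpr removed 0 genes, and edgeR (version 4.0.16, R version 4.3.3) quasi-likelihood tests were run with a mean per group. Genes with a p below 0.05 after Benjamini-Hochberg adjustment over 13766 genes count as called. XY minus XX is averaged over gonads, the gonad effect over sex chromosomes, and tests are 2-sided. Correlations used log2 CPM (prior count 2) less the group mean, with 100000 permutations within groups and adjustment over 45 pairs or 100 combinations with marker lists. Marker scores are the mean log2 CPM of a list. DESeq2 (version 1.42.0), limma (version 3.58.1), other normalizations, filters and covariates, and leaving out each library were alternatives. The edgeR fit for XY minus XX, the gonad and the interaction was also run on simulated counts with known changes. The recovery there is not reported here, and no result above rests on it.

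The members and the gene lists were chosen with earlier results of these data known. The text names the 10 members, up to 3 called genes per list and effect or otherwise the 1 with the smallest p, always Tmsb4x, Myl9, Srf, Tagln and other calponins and filamins, and the 5 genes most correlated with Mylk, Cnn2, Flna and Actb. The values of 2 genes that this rule names are not reported here. Tissue was dissected, so p-values measure the spread between animals and dissections together.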

Additional observations from a re-analysis of the deposited data

Results flagged for a closer look

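Cnn2 in XXM replicate 1 was at 4.24 CPM, and the other 5 XXM libraries began at 6.33 CPM, a gap past Dixon's limit for 6 values. Of 40 combinations of a gene and a group examined this was the only one so marked, and chance marks about 1 in 20. This library is on the low side of XX, so it widens the XY minus XX difference of Cnn2. Without it the difference was 0.70 on the log2 scale, the lowest of the 23 values with a library left out.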

How the results depend on the processing

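On the log2 scale the XY minus XX difference of Mylk ran from 0.48 to 0.53 and that of Cnn2 from 0.70 to 0.78 when each library was left out in turn, and both, like Tgfb1i1 (0.49 to 0.59), stayed past the threshold in 23 of 23 such fits and in 11 of 11 other settings. Flna (0.53 to 0.64) stayed in 20 of 23 and in 10 of 11. It was lost without XXF replicates 3, 4 or 5 and with limma on the deposited log2 values. These fits reuse the data on which the genes were chosen, so they describe the difference and do not test it. The number of genes called for XY minus XX was 39, and 60 with DESeq2, 68 with voom quality weights, 63 with the choroid plexus covariate and 75 with the first within-group component as a covariate (added after the data were seen, as were the marker relations with a library left out). For the gonad it was 22, and 98, 76, 44 and 68 in the same order, 13 with the library total as a covariate, and 17 to 85 when each library was left out (85 without XXF replicate 5, 49 without XYM replicate 1, 42 without XYF replicate 1 and 34 without XYF replicate 5). For the interaction it was 0, 14 with that component, and 0 to 3 when each library was left out. The 8 correlated pairs became 5 with the mural cell score removed, 5 with the component removed and 7 to 12 when each library was left out. The 3 marker relations became 0 with a list median and 0 to 8 when each library was left out. The 3 CArG promoters stayed 3 with up to 1 mismatch allowed in the centre of the box only, its outer CC and GG being kept. With that allowance the share of all promoters went from 1.25% to 8.75% and that of the other cytoskeleton genes from 4.71% to 14.7%. The component was learned from these same libraries and takes out spread within groups, so the counts with it are not independent support. The causes were not tested.

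Signs turned where estimates were near 0, all uncalled. The gonad effect became -0.00745 (Mylk) and 0.0259 (Flna) with quality weights, 0.0738 (Flna) with the mural cell covariate and 0.0100 (Actb) with the library total. It ran from -0.0554 to 0.0146 for Actb and from -0.0748 to 0.0371 for Flna when each library was left out. The interaction became 0.00608 (Mylk) and 0.00335 (Actb) with DESeq2, 0.000333 and 0.00346 with its size factors, 0.0237 (Mylk) and -0.0463 (Tgfb1i1) with voom, and 0.0248 (Mylk), -0.0832 (Tgfb1i1) and 0.0130 (Actb) with quality weights. It became 0.00130 (Actb) with the deposited log2 values, 0.0312 (Mylk), -0.00382 (Tgfb1i1) and -0.00521 (Actg1) with the choroid plexus covariate, -0.00205 (Tgfb1i1) with the mural cell covariate and -0.000755 (Tgfb1i1) with the component. When each library was left out it ran from -0.0678 to 0.0640 for Actb, from -0.00194 to 0.0751 for Actg1, from -0.0207 to 0.0593 for Actn1, from -0.148 to 0.0180 for Cnn2, from -0.0578 to 0.0357 for Mylk and from -0.109 to 0.0781 for Tgfb1i1. No paired analysis was possible because the labels give no replicate numbers shared between groups. Of the members Cnn2 and Tgfb1i1 had the fewest counts in CPM, and what depth adds to their spread was not tested.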

Other observations

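Tmsb4x and the members were compared within groups, a comparison chosen after the values were seen. Mylk (r = 0.24, adjusted p = 0.360 over 10 genes by permutation), Cnn2 (r = -0.16, adjusted p = 0.559) and Tgfb1i1 (r = -0.28, adjusted p = 0.360), which like Tmsb4x were higher in XY, were not found to vary with it. Without the 2 libraries farthest from the median of Tmsb4x these were -0.05, -0.10 and -0.17. Myh9 (r = -0.65, permutation p = 0.00139, adjusted p = 0.0139, rho = -0.61) and Actn1 (r = -0.59, permutation p = 0.00845, adjusted p = 0.0422, rho = -0.57) ran against Tmsb4x, and without the 2 farthest libraries r was -0.62 and -0.66. Flna had r = -0.54 (adjusted p = 0.0502 by permutation).

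The first component of within-group variation over all genes held 22.4% of the variance. The members' r with it was 0.68 for Flna, 0.60 for Actn1, 0.52 for Vcl, 0.46 for Myh9 and -0.62 for Tpm1, and 0.20 for Mylk, 0.08 for Cnn2 and 0.04 for Tgfb1i1. With this component as a covariate the XY minus XX difference was 0.50 ± 0.06 for Mylk, 0.75 ± 0.09 for Cnn2, 0.53 ± 0.10 for Tgfb1i1 and 0.58 ± 0.09 for Flna. The component was taken from values with each group's mean removed, so these estimates could hardly change. They are therefore no check on the XY minus XX difference.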
